A study of Mus musculus with 4 samples.

Results

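Transcripts of the fibroblast growth factor Fgf15, of 3 FGF receptors and of 6 genes known to respond to FGF signals were followed through 4 RNA sequencing libraries of E13.5 mouse brain. The genes are Fgf15, Fgfr1, Fgfr2, Fgfr3, Spry1, Spry2, Spry4, Etv1, Etv4 and Etv5. They were selected on their counts in these same libraries, with earlier results in view, so their KO and WT values are given as a description, with no p. They were found by gene name in both deposited tables, 10 of 10 in each, among 19150 genes that the tables share. The series is titled for macroH2A deletion, and 2 brains labelled KO (KO2 and KO4) were compared with 2 labelled WT (WT6 and WT8), all of strain C57BL/6. The labels give neither the allele nor the gene that was deleted, nor the litters. The spread between libraries may in part be technical, and the labels do not tell that part from differences between embryos.

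FGFs are secreted ligands that bind receptor tyrosine kinases together with heparan sulfate and switch on the Ras and MAP kinase cascade. In the embryonic brain, sources of FGF lie at the rostral midline of the telencephalon and at the border of midbrain and hindbrain, and help to set the position and growth of neighbouring tissue. Fgf15, the mouse counterpart of human FGF19, is made by progenitors of the medial telencephalon, the diencephalon and the midbrain. Sprouty genes and the PEA3 group of ETS factors (Etv1, Etv4 and Etv5) are switched on by the pathway and are commonly read as its output, and Sprouty proteins in turn dampen it.

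Total counts lay between 16470090 and 18136745 reads per library, so depth differed little. H2afy, the gene of macroH2A1, had 1368 and 1267 reads in KO2 and KO4, against 5538 and 5593 in WT6 and WT8, or -2.22 as log2 of KO over WT (SE 0.10, edgeR quasi-likelihood adjusted p = 0.00167). Without WT6 no gene was called lower, H2afy included. H2afy2, the gene of macroH2A2, stood at 0.08 (SE 0.09, edgeR adjusted p = 0.799). Progenitor and neuronal markers were abundant in every library, with Vim between 718 and 819 CPM (reads per 1000000, scaled by TMM factors) and Tubb3 between 2789 and 3442 CPM. En1, En2, Pax8 and Wnt1, which mark midbrain and isthmus, had no value in either table used here. Xist, transcribed from the inactive X chromosome, had 6 and 8105 reads in KO2 and KO4, against 19 and 6094 in WT6 and WT8, so each genotype held 1 library with abundant Xist and 1 nearly without. KO2 and WT6, nearly without Xist, share a deposited table, as do KO4 and WT8, where it was abundant.

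Start-site sequences are shown for members on which the results below turn, Etv1, Etv5 and Spry1, and for Fgf3, which lies on the same stretch of chromosome 7 as Fgf15. Each is a RefSeq window on GRCm38.p6 from 250 bases before to 50 after a start, read 5′ to 3′ on the strand of the gene. Capitals mark exact matches, on either strand, of GGAAGT or AGGAAG, which hold the GGAA core that ETS factors bind. The motifs can overlap each other.
Etv1, chr12:38779832-38780131, plus strand: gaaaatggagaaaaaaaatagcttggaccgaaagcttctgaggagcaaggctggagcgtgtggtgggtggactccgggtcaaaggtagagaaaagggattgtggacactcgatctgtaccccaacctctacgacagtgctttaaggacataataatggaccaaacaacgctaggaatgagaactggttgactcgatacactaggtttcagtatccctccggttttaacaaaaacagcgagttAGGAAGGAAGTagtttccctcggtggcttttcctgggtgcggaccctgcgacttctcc
Etv5, chr16:22438319-22438618, minus strand: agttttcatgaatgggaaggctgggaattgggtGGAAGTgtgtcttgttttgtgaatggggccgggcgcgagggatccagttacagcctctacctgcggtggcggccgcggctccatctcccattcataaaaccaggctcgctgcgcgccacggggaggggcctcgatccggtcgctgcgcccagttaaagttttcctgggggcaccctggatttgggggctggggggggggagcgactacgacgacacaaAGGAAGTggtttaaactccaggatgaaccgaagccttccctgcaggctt
Spry1, chr3:37639697-37639996, plus strand: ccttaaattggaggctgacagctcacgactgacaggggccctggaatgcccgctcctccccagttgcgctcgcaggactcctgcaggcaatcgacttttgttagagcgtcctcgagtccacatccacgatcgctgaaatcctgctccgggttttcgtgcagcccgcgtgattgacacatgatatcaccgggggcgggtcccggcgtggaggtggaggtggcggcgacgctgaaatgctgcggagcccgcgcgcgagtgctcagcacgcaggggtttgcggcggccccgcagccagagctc
Fgf3, chr7:144838362-144838661, plus strand: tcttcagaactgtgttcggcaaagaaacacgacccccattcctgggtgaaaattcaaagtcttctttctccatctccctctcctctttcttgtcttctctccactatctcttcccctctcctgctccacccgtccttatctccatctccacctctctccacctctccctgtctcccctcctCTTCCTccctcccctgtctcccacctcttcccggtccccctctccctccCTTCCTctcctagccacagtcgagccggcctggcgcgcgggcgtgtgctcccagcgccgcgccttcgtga

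RefSeq windows were matched for 6 of the 10 genes, 9 windows in all, since Fgfr3, Etv1 and Etv5 have 2 starts each. GGAAGT was present in 2 of the 9 windows, against 23.8% of 32851 mouse windows of the same length. AGGAAG was present in 3 of the 9, against 35.4% of all windows, and CACGTG, an E-box searched for comparison, in 1 of the 9, against 7.15%. In the Etv1 window the run of capitals is 2 overlapping AGGAAG matches that end in GGAAGT, and the second Etv1 start holds neither ETS motif. Both ETS motifs were found in the second Etv5 window shown above, and neither was found in the Spry1 window. A match of 6 letters is no evidence of binding, and a window without one says nothing of sites elsewhere.

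Per kilobase of exon, the receptors Fgfr3 and Fgfr1 were the most abundant of the 10 genes and Spry4 the least. Over the 4 libraries Fgfr3 averaged 13.6 CPM per kb (10.8 to 15.6) and Fgfr1 13.1 CPM per kb (12.3 to 14.9), so their ranges overlapped. Etv5 followed at 8.08 CPM per kb (6.41 to 9.78), below both receptors in range. Fgf15, at 5.72 CPM per kb, spanned 2.03 to 9.26 and so overlapped every gene from Etv5 down to Etv1. Spry2 had 5.31 CPM per kb (4.59 to 6.6) and Fgfr2 5.1 (4.74 to 5.5), which did not separate. Spry1 at 2.78 CPM per kb (2.37 to 3.25) overlapped Etv4 at 2.17 (1.79 to 2.62), which overlapped Etv1 at 1.97 (1.58 to 2.3). Spry4 at 0.835 CPM per kb (0.562 to 1.13) lay below all others. Exonic lengths are those of all annotated exons together in GENCODE M21, from 2087 bases for Spry2 to 13296 for Etv1, so a gene with many rare exons is placed too low.

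**Figure D1:**
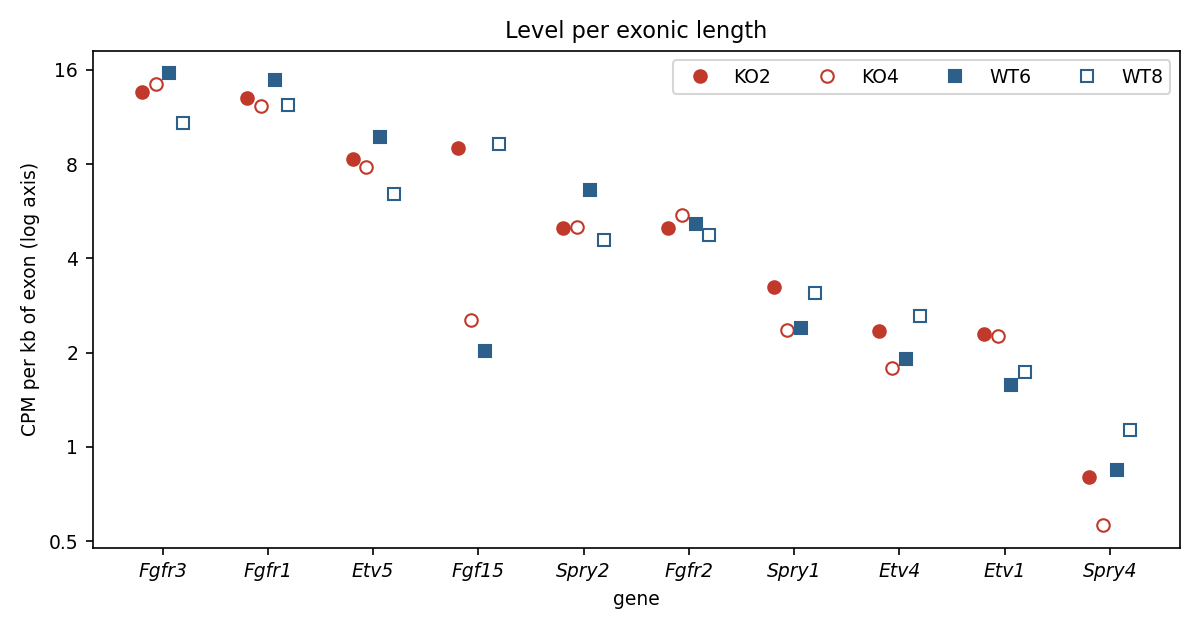
Level per length of each gene (CPM per kb of exon, log axis) in KO2 and KO4 (red circles) and WT6 and WT8 (blue squares), ordered by the mean of the 4 libraries. Fgfr3 and Fgfr1 lie at or above 10.8 in every library, Spry4 lies at or below 1.13, and the points of Fgf15 spread from 2.03 to 9.26.

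Fgf15, the ligand, differed several-fold between libraries of the same genotype. It lies on chromosome 7 (ENSMUSG00000031073, 144896531 to 144900953 on GRCm38, plus strand) and had 506 and 143 reads in KO2 and KO4, against 107 and 452 in WT6 and WT8. These are 27.6 and 7.81 CPM in KO2 and KO4, against 6.22 and 28.3 in WT6 and WT8. KO2 and WT8 were therefore high and KO4 and WT6 low, and each genotype held 1 high and 1 low library. The mean was 17.7 ± 14 CPM in KO brains against 17.3 ± 15.6 CPM in WT brains (SD, n = 2 each), or 0.04 as log2 of KO over WT (SE 0.74) with a 95% interval from -1.72 to 1.80. Without KO2 the log2 fold change was -1.14 and without WT8 it was 1.51. The interval of the full fit is too wide to tell a change of several fold in either direction from none. The library with the most Fgf15 held 4.55 times that with the least, or 2.17 on a log2 scale with a prior count of 2. Among 10055 genes with a mean of at least 10 CPM, 18, Fgf15 included, had a range this large, and the median range was 0.26. The high libraries, KO2 and WT8, share neither a genotype nor a table. Table and Xist level split the 4 libraries in the same way. As these are bulk samples, fewer cells of a type and less RNA per cell cannot be told apart.

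**Figure D2:**
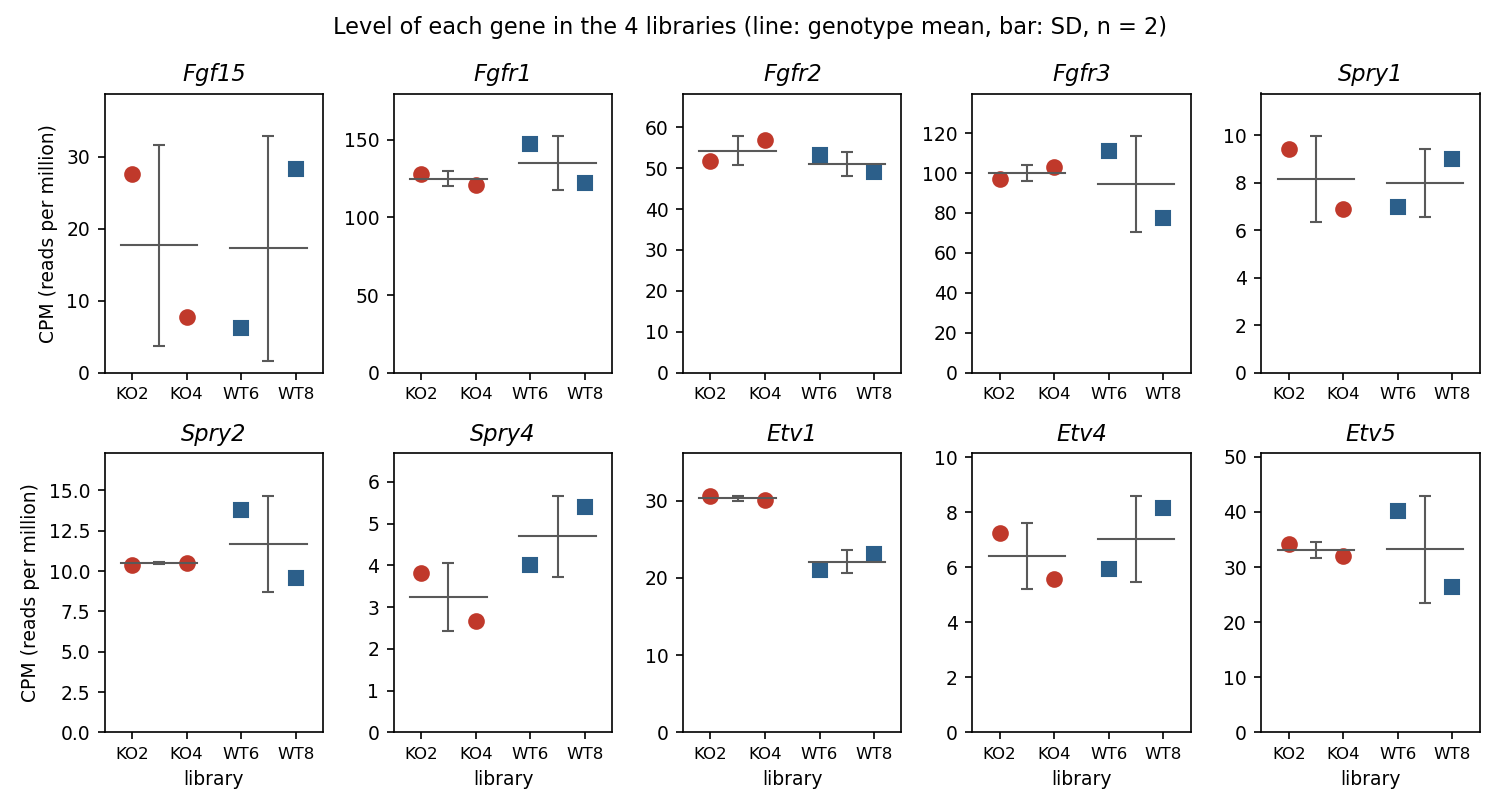
CPM of each of the 10 genes in KO2 and KO4 (red circles, left) and WT6 and WT8 (blue squares, right), each axis starting at 0, with the genotype mean as a line and the SD as a bar (n = 2). Fgf15 is high in KO2 and WT8, Etv1 is higher in both KO libraries than in both WT libraries, and Spry4 is lower.

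Within the tables as deposited, Fgf15 went in opposite directions. KO2 held 4.44 times the Fgf15 of WT6, with an exact 95% counting interval of 3.6 to 5.52. KO4 held 0.276 times that of WT8 (0.227 to 0.334). Each ratio sets 1 library against 1, and its interval covers counting error only, so it speaks of these libraries and not of the genotypes. The authors' deposited tables give log2 fold changes of 2.161 and -1.795 and mark Fgf15 as significant in both. It was the only 1 of the 10 genes they marked, beside 1.86% of all genes marked in the table of KO2 and WT6 and 5.05% in that of KO4 and WT8.

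The genes whose pattern over the 4 libraries was most like that of Fgf15 were Zic4 and Zic1, neighbouring zinc finger genes of the dorsal and medial brain. Likeness was the root mean square difference of log2 CPM, each gene centred on its own mean over the 4 libraries, among 10048 other genes with a mean of at least 10 CPM, for which the median difference was 1.01. Zic4 differed from Fgf15 by 0.16 and had 36.7 and 8.84 CPM in KO2 and KO4, against 9.65 and 38.1 in WT6 and WT8. Zic1 differed by 0.35 and had 131 and 60.3 CPM in KO2 and KO4, against 53.1 and 148 in WT6 and WT8. Both were high where Fgf15 was high. The next 3 were mt-Atp6, a mitochondrially encoded subunit of ATP synthase, at 0.42, the processed pseudogene Gm7331 at 0.44 and Dmrtb1 at 0.45. The order over 4 libraries is a description of these libraries and not of shared control.

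Fgf17 and Fgf3 were high in the same libraries as Fgf15. Fgf17, an FGF of the rostral midline and isthmus, had 3.06 and 1.47 CPM in KO2 and KO4, against 1.16 and 6.14 in WT6 and WT8, and differed from Fgf15 by 0.38. Fgf3 had 4.58 and 2.57 CPM in KO2 and KO4, against 1.45 and 4.57 in WT6 and WT8, and differed by 0.43. Fgf8, the best known of the rostral FGFs, had too few reads for the fit, with 6 and 4 in KO2 and KO4, against 0 and 7 in WT6 and WT8. The remaining ligands with enough reads did not divide so clearly. Fgf9 had 3.49 and 4.2 CPM in KO2 and KO4, against 2.67 and 3.76 in WT6 and WT8, and Fgf18, an FGF of the developing cortex, lay between 2.56 and 3.14 CPM. Fgf2, Fgf7 and Fgf10 had between 9 and 37 reads per library.

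Fgf3 is the nearest other FGF gene with a value, ending 52095 bases before the start of Fgf15 on the same strand. Fgf4, which lies between them, had no value in the tables used here. On the other side of Fgf15, Ccnd1, which encodes cyclin D1 and lies 28978 bases away, had 30.8 and 34.7 CPM in KO2 and KO4, against 31 and 28.7 in WT6 and WT8. Oraov1, nearer still at 14147 bases, had 34.5 and 39.6 CPM in KO2 and KO4, against 39.8 and 36.3 in WT6 and WT8. Neither gene was high in KO2 and WT8 as Fgf15 was. Ano1, a chloride channel gene 144557 bases before Fgf15, had 12.5 and 8.68 CPM in KO2 and KO4, against 6.51 and 9.33 in WT6 and WT8, highest in KO2 and lowest in WT6. Gm26793, an antisense RNA, shares 761 exonic bases with Fgf15 and had 41 and 14 reads in KO2 and KO4, against 32 and 24 in WT6 and WT8. Whether counting used strand is not stated, so reads in that stretch cannot be told apart, though the antisense gene had fewer reads than Fgf15 in every library.

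Among markers of brain regions, Otx2 was high and low in the same libraries as Fgf15, and others were so only in part. Otx2, a homeobox gene of the forebrain and midbrain, of the choroid plexus and of the midline, had 8.4 and 3 CPM in KO2 and KO4, against 1.57 and 9.08 in WT6 and WT8, a pattern that differed from that of Fgf15 by 0.20. The midbrain and isthmus list had a value for 3 of 10 genes, Otx2, Cnpy1 and Pax2, with a summed level of 4.15 to 9.77 CPM in KO and 2.5 to 10.9 CPM in WT, most of it Otx2. The diencephalon list, 8 of 10 with a value, summed to 57.6 and 55.2 CPM in KO2 and KO4, against 49.1 in WT6, the lowest, and 60.7 in WT8, the highest. Its genes tested had a median deviation from their own mean log2 CPM of -0.03 in KO2 and 0.12 in KO4. That median was -0.34 in WT6 and 0.49 in WT8. Choroid plexus markers, 5 of 7 with a value and Otx2 among them, summed to 5.29 to 11.3 CPM in KO and 5.99 to 12.6 CPM in WT, and Ttr, its defining gene, was highest in WT6 at 3.08 CPM, where Fgf15 was lowest. Rostral and cortical factors, 10 of 10 with a value, summed to 1489 to 1497 CPM in KO and 1560 to 1673 CPM in WT. Nkx2-1, a factor of the ventral forebrain named after its values were seen, had 97.5 and 71.3 CPM in KO2 and KO4, against 16.9 and 118 in WT6 and WT8. Its pattern differed from that of Fgf15 by 0.65, and in KO4 it lay above its own mean, by 0.23. The summed markers of every cell type list were also lower in KO4 than in KO2 and lower in WT6 than in WT8. Such sums follow the most abundant genes of a list, and other genes could go otherwise, as Hbb-y did at 177 CPM in KO2 and 227 in KO4. Neural progenitor markers, 10 of 10 with a value, summed to 2287 and 2137 CPM in KO2 and KO4, against 2266 and 2416 in WT6 and WT8. Postmitotic neuron markers, 12 of 12 with a value, summed to 7042 and 6827 CPM in KO2 and KO4, against 7163 and 7194 in WT6 and WT8. Much of that sum was Tubb3, at 2838 CPM in WT6 and 3442 in WT8, while Neurod6 had 839 CPM in WT6 and 530 in WT8. Of these 12 genes, 3 were highest in WT8 and 3 were lowest in WT6. Surface epithelium and lens markers, 4 of 8 with a value, summed to 4.09 and 2.46 CPM in KO2 and KO4, against 2.79 and 4.26 in WT6 and WT8. Oligodendrocyte lineage markers, 5 of 5 with a value, summed to 60.8 and 52.7 CPM in KO2 and KO4, against 38.9 and 66 in WT6 and WT8. Erythroid markers, 10 of 10 with a value, summed to 1006 and 910 CPM in KO2 and KO4, against 787 and 1484 in WT6 and WT8. The part of such markers in the level of Fgf15 was not tested.

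**Figure D3:**
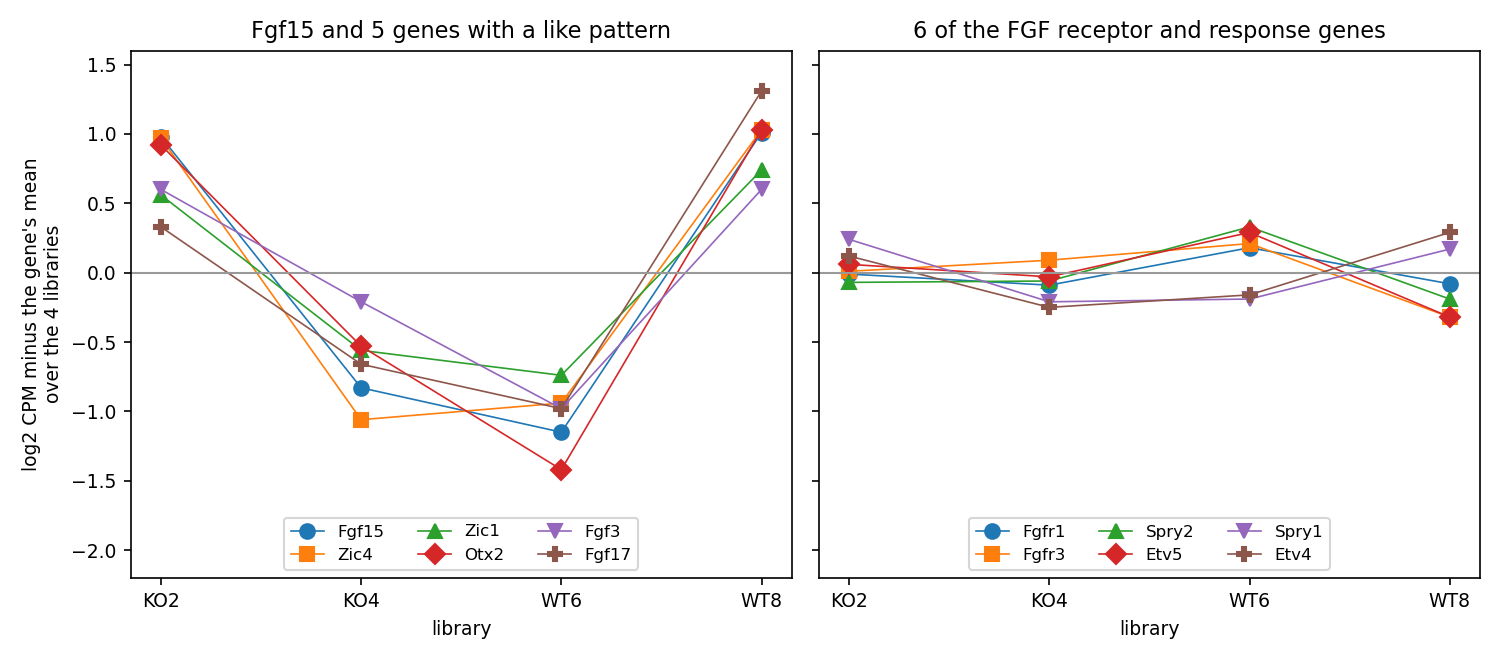
Log2 CPM of each gene minus its mean over the 4 libraries, for KO2, KO4, WT6 and WT8, with points of a gene joined by a line that stands for no order in time or dose. Left, Fgf15, Zic4, Zic1, Otx2, Fgf3 and Fgf17 lie above their mean in KO2 and WT8 and below it in KO4 and WT6. Right, Spry1 and Etv4 do likewise within 0.29 of their mean, while Fgfr1, Fgfr3, Spry2 and Etv5 are highest in WT6.

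The 3 receptor genes overlapped between KO and WT brains. Fgfr1 (chromosome 8, 25513654 to 25575718, plus strand) had 2354 and 2223 reads in KO2 and KO4, against 2526 and 1951 in WT6 and WT8, or 125 ± 5.03 CPM in KO brains against 135 ± 17.4 CPM in WT brains (SD, n = 2 each). Its log2 fold change was -0.11 with a 95% interval from -0.37 to 0.15, so that a change of more than 0.37 on the log2 scale in either direction lay outside that interval. Fgfr2 (chromosome 7, 130162451 to 133123350, minus strand) had 949 and 1040 reads in KO2 and KO4, against 913 and 782 in WT6 and WT8, and its log2 fold change was 0.09 (SE 0.09, 95% interval -0.14 to 0.31). For neither gene did the KO libraries stand apart from the WT libraries. Fgfr3 (chromosome 5, 33721674 to 33737068, plus strand), a receptor of ventricular zone progenitors, had 1779 and 1885 reads in KO2 and KO4, against 1917 and 1236 in WT6 and WT8. Its level was 100 ± 4.11 CPM in KO brains against 94.4 ± 24.1 CPM in WT brains, and the log2 fold change was 0.08 (SE 0.16) with an interval of -0.31 to 0.47. The spread of Fgfr3 lay within WT, where WT6 was the highest library and WT8 the lowest. Exons of Fgfr2 share 314 bases with Ctbp2, which had 714 to 1046 reads per library, and those of Fgfr3 share 998 bases with G630022F23Rik, which had 45 to 52.

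Of the 3 Sprouty genes, Spry4 was lower in both KO libraries than in both WT libraries. Spry4 (chromosome 18, 38586268 to 38601268, minus strand) had 70 and 49 reads in KO2 and KO4, against 69 and 86 in WT6 and WT8, the fewest of the 10 genes. Its level was 3.25 ± 0.81 CPM in KO brains against 4.7 ± 0.972 CPM in WT brains (SD, n = 2 each), or -0.53 as log2 of KO over WT (SE 0.28) whose 95% interval of -1.20 to 0.14 holds 0. Genotypes that do not overlap are common here, as both KO libraries lay below both WT libraries for 19.4% of all genes tested. The step between the genotypes was small, 3.82 CPM in KO2 against 4.01 in WT6, and most of the difference came from KO4 and WT8. The ratio of KO4 over WT8 was 0.497 (exact 95% counting interval 0.342 to 0.713) and that of KO2 over WT6 was 0.952 (0.673 to 1.35).

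Spry1 and Spry2 overlapped between KO and WT and differed in which library was high. Spry1 (chromosome 3, 37639947 to 37644598, plus strand) had 173 and 126 reads in KO2 and KO4, against 120 and 144 in WT6 and WT8, so that KO2 and WT8 were high and KO4 and WT6 low, as for Fgf15. The size of that step was smaller, 1.37-fold between the highest and lowest library against 4.55-fold for Fgf15. Spry1 averaged 8.16 ± 1.81 CPM in KO brains against 8 ± 1.44 CPM in WT brains, or 0.03 as log2 of KO over WT (SE 0.23). Spry2 (chromosome 14, 105891949 to 105896819, minus strand) had 191 and 193 reads in KO2 and KO4, against 237 and 153 in WT6 and WT8. Its KO libraries lay between the WT libraries, and its log2 fold change was -0.16 (SE 0.20, 95% interval -0.64 to 0.32).

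Among the PEA3 group factors, Etv1 was higher in both KO libraries than in both WT libraries, and with little spread. Etv1 (ENSMUSG00000004151, chromosome 12, 38779380 to 38870484, plus strand) had 560 and 551 reads in KO2 and KO4, against 362 and 369 in WT6 and WT8. It averaged 30.3 ± 0.34 CPM in KO brains against 22.1 ± 1.46 CPM in WT brains (SD, n = 2 each), or 0.46 as log2 of KO over WT (SE 0.12) with a 95% interval of 0.18 to 0.73 for that gene alone. The ratio was 1.45 (exact 95% counting interval 1.27 to 1.66) in the first table, KO2 over WT6, and 1.3 (1.14 to 1.49) in the second, KO4 over WT8. For 20.1% of all genes tested the KO libraries lay above the WT libraries without overlap, so this position alone does not set Etv1 apart. Etv1 did not pass the edgeR threshold over all genes, and the authors' deposited tables, which mark no gene below a log2 change of 1 in size, do not mark it. Etv1 is also known as a marker of particular cortical neurons.

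Etv4 and Etv5 did not follow Etv1. Etv4 (chromosome 11, 101769742 to 101785371, minus strand) had 133 and 102 reads in KO2 and KO4, against 102 and 130 in WT6 and WT8, high and low in the same libraries as Fgf15. It averaged 6.41 ± 1.19 CPM in KO brains against 7.04 ± 1.56 CPM in WT brains, or -0.13 as log2 of KO over WT (SE 0.24). Etv5 (chromosome 16, 22381309 to 22439719, minus strand) had 626 and 587 reads in KO2 and KO4, against 690 and 420 in WT6 and WT8, with 33.1 ± 1.5 CPM in KO brains against 33.2 ± 9.76 CPM in WT brains. Its log2 fold change was -0.01 with an interval of -0.46 to 0.45, and WT6 and WT8 lay on either side of the KO libraries. Fgfr3, Spry2 and Etv5 were thus 3 of the 10 genes that were highest in WT6 and lowest in WT8, an order held by 10.5% of all genes tested.

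Over the whole set, 0 of the 10 genes were called higher and 0 lower in KO in the fit over all genes (edgeR, adjusted p under 0.05), where 0.00637% of the 15708 genes tested were called, that is H2afy alone. At an unadjusted p under 0.05 there were 738 of the 15708 genes, and DESeq2 called 2 genes higher and 2 lower, none of them among the 10. The 10 log2 fold changes had a median of 0.01, with 5 above 0 and 5 below, beside a median of -0.01 over all genes tested. The genotypes did not overlap for 2 of the 10, Etv1 and Spry4, in opposite directions, beside 20.1% of all genes with KO above WT and 19.4% with KO below WT. Within the tables, 7 of the 10 lay on opposite sides of 1 in KO2 over WT6 and KO4 over WT8, as did 50.1% of all genes tested. The 3 with the same direction in both were Etv1, Spry4 and Fgfr1. The direction of Fgfr1 in KO4 over WT8 depends on scaling, as the ratio was 0.993 (0.934 to 1.06) with TMM factors and 1.038 in the authors' deposited table.

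**Figure D4:**
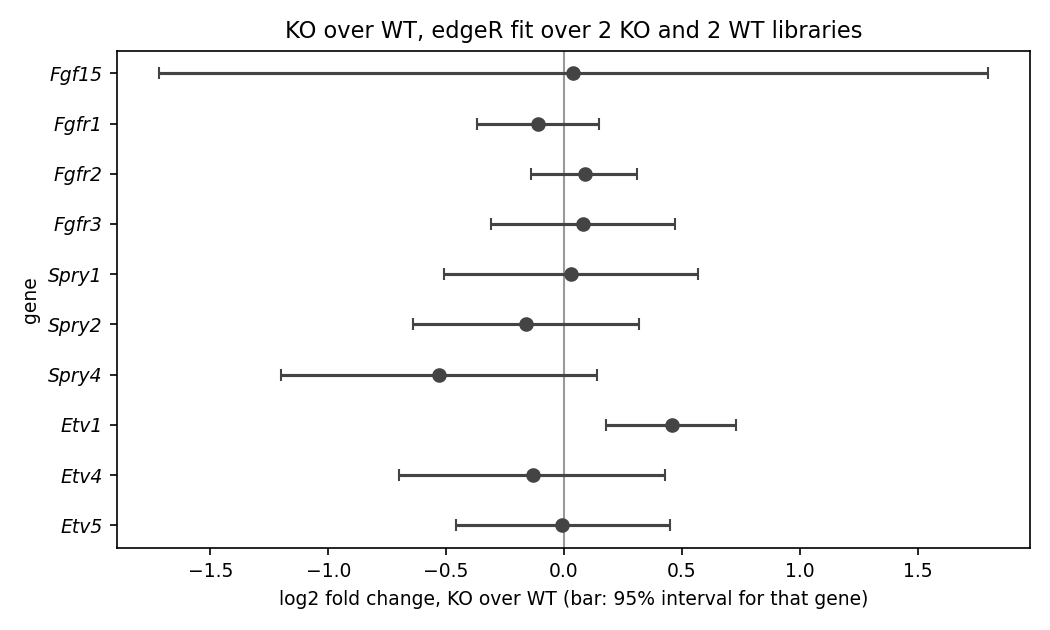
Log2 fold change of KO over WT for each of the 10 genes from the edgeR fit over 2 KO and 2 WT libraries, with the 95% interval of that gene, not adjusted for the number of genes. Etv1 lies at 0.46 (0.18 to 0.73) and Spry4 at -0.53 (-1.20 to 0.14), and the interval of Fgf15 is the widest of the 10, from -1.72 to 1.80.

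**Figure D5:**
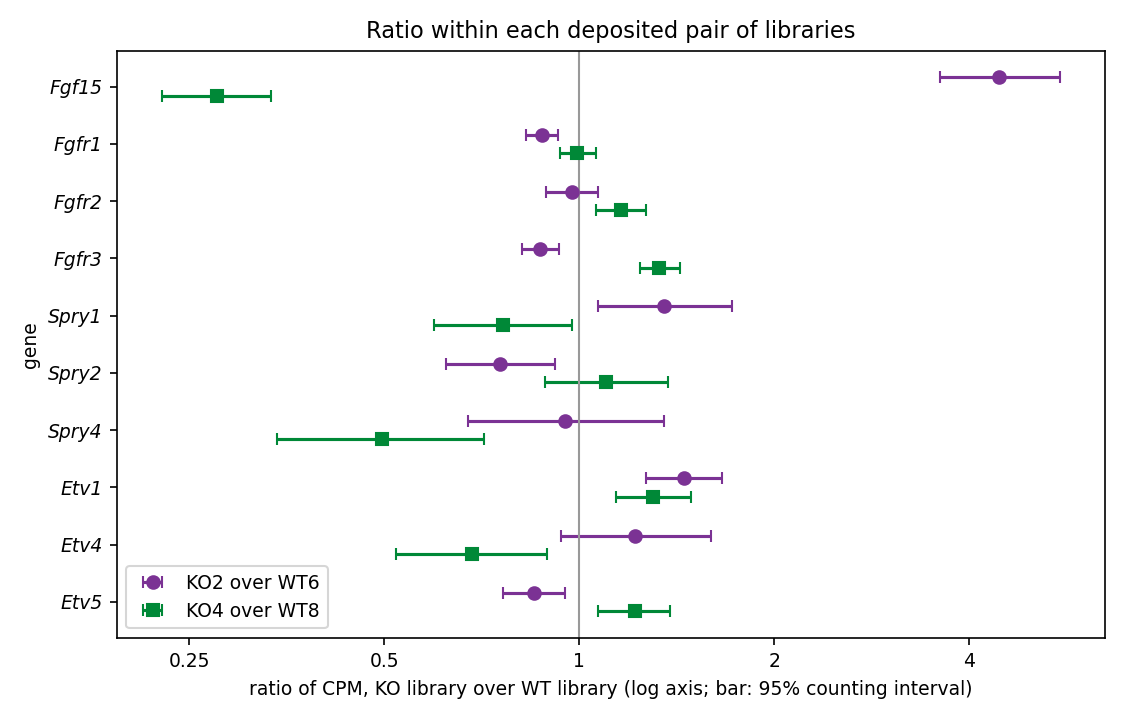
Ratio of CPM of KO2 over WT6 (circles) and of KO4 over WT8 (squares) for each gene on a log axis, with exact 95% counting intervals. The ratios of Fgf15, 4.44 and 0.276, lie farthest from 1 and on opposite sides of it, and both ratios of Etv1 lie above 1.

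The wider pathway was examined through 8 lists of 112 genes in all, of which 100 had a value in both tables and 96 enough reads for the fit. None of the 96 was called higher or lower in KO (edgeR, smallest adjusted p 0.743). With 2 libraries per genotype this does not show that none of them changed. In the same edgeR fit, 4 of the 96 had an unadjusted p under 0.05, or 4.17%, against 4.7% of all genes. The 96 had 48 log2 fold changes above 0 and 48 below. The medians of the lists lay between -0.15 for the 7 other ligands tested and 0.18 for 7 other receptors and coreceptors, beside -0.01 for all genes.

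Among other receptors and coreceptors, 4 of 7 lay above 0. Flrt2, a transmembrane protein that binds FGF receptors and latrophilins, had 54.5 and 65.6 CPM in KO2 and KO4, against 49.9 and 45.7 in WT6 and WT8, or 0.33 as log2 of KO over WT (SE 0.12, edgeR adjusted p = 0.743). Fgfrl1, a receptor without a kinase domain, stood at -0.12, the carrier protein gene Fgfbp3 at -0.04 and Fgfr4 at -0.49 on 18 to 31 reads. Of the 21 heparan sulfate genes tested, 9 lay above 0, with a median of -0.02. The glypican Gpc1 (297 ± 13.3 CPM in KO, 308 ± 3.13 in WT) and the syndecan Sdc3 (279 ± 1.4 CPM in KO, 308 ± 3.46 in WT) were the most abundant, and neither passed (edgeR adjusted p = 0.864 and 0.743). Hs2st1, a sulfotransferase of heparan sulfate, stood at 0.12 and Ndst2, another, at -0.19. Intracellular FGF homologous factors, which bind sodium channels and are not secreted, stood between -0.16 and 0.29, with Fgf13 at 0.19 and Fgf11 at -0.13 the best measured.

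Downstream of the receptors, 8 of 13 adaptors, 7 of 15 genes of the Ras and MAP kinase cascade and 6 of 14 other feedback inhibitors lay above 0, and 0 of them passed. Rps6ka3, which encodes the kinase RSK2 downstream of ERK, had 38.1 and 38.8 CPM in KO2 and KO4, against 31 and 26 in WT6 and WT8, or 0.43 as log2 of KO over WT (SE 0.12, edgeR adjusted p = 0.743). Braf, a kinase that activates MEK, had 50.2 ± 0.413 CPM in KO brains against 42.2 ± 1.58 CPM in WT brains (SD, n = 2 each), or 0.25 as log2 of KO over WT (SE 0.09) with the same adjusted p in edgeR. Both genes were higher in both KO libraries than in both WT libraries, as were 20.1% of all genes tested. They were named for the smallest p in their list, a choice that favours such genes. Mapk3 (ERK1) stood at -0.22 and the adaptor Grb2 at -0.14. Crkl, another adaptor, stood at 0.57, where WT8 was low at 16.5 CPM against 29.8 in WT6, with 34.4 ± 5.33 CPM in KO brains against 23.1 ± 9.36 CPM in WT brains. Among the inhibitors, Spred1 stood at 0.06, the GTPase activators Nf1 at 0.00 and Rasa1 at 0.20, and Il17rd, which encodes the FGF antagonist Sef, at 0.31. Dusp6, the ERK phosphatase that is often used as an index of FGF signal and named here after its values were seen, had 14.2 and 12.3 CPM in KO2 and KO4, against 15 and 13.7 in WT6 and WT8, or -0.11 as log2 of KO over WT (SE 0.15).

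Other ETS factors and the repressor Capicua had 9 of 15 values above 0 and a median of 0.05. Erf, an ETS repressor that ERK inactivates, had 71.3 and 70.8 CPM in KO2 and KO4, against 83.6 and 95.1 in WT6 and WT8. Its log2 fold change of -0.33 (SE 0.09) did not pass (edgeR adjusted p = 0.743). Both KO libraries lay below both WT libraries, as for 19.4% of all genes tested, and Erf was named in part for its small p. Cic, which represses Etv1, Etv4 and Etv5 until ERK relieves it, had 331 ± 2.47 CPM in KO brains against 365 ± 4.7 CPM in WT brains (SD, n = 2 each), or -0.14 as log2 of KO over WT (SE 0.08, edgeR adjusted p = 0.743). Elf2 stood at 0.11. The 10 rostral and cortical factors, whose borders FGFs help to place, had 5 log2 fold changes above 0 and 5 below, a median of -0.02 and 0 calls. Emx1, a factor of the dorsal telencephalon named after its values were seen, had 145 and 137 CPM in KO2 and KO4, against 194 and 197 in WT6 and WT8. Its log2 fold change of -0.47 (SE 0.08), the farthest from 0 of the 10, did not pass (edgeR adjusted p = 0.743), and Emx2, likewise named, stood at -0.20 (SE 0.09). Nr2f1 (COUP-TFI) had 275 ± 10.9 CPM in KO brains against 266 ± 21.5 CPM in WT brains and Lhx2 stood at -0.24, and neither passed (edgeR adjusted p = 0.898 and 0.743).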

How the data were processed

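Brain RNA of 2 KO and 2 WT C57BL/6 embryos at E13.5 was extracted with Trizol and sequenced, per the labels' protocols. Tools in the submitters' processing notes are HTSeq 0.6.0, TopHat2 2.0.12 and Bowtie2 2.2.3, with no roles, and the build there is mm9, but 91.2% of gene positions in the tables are identical to GENCODE M21 on GRCm38, so positions are given on GRCm38. The authors deposited 2 tables (KO2 with WT6, KO4 with WT8) with a raw read count per gene, per the file headers. The deposited normalized values are CPM, as found from the values, with 0.5 read in place of a count of 0. The authors' fold change is a linear ratio of KO over WT, given with its log2, p-value and adjusted p-value, per the file headers, with no name for the test.

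Counts of the 19150 shared genes were joined by gene identifier. The test was edgeR 4.0.16 in R 4.3.3 (quasi-likelihood F-test, genotype as the only term, TMM, filterByExpr, Benjamini-Hochberg over 15708 genes, threshold 0.05). The standard error (SE) was taken as the log2 fold change over the square root of F. Ratios within a table have exact conditional 95% intervals, which cover counting error only. The fit was tested on simulated counts. Alternatives were DESeq2 1.42.0, limma-voom (limma 3.58.1), 3 other scalings, 2 other filters on low counts, the deposited table as a block, each library left out, and a prior count of 0.5 in place of 2. The members and gene lists were chosen with earlier results of these data known. Named genes were, from each pathway list, the 3 most abundant and the 2 of smallest p, and the 5 most like Fgf15. Some of the genes this rule names are not reported here. Protein sequences were not used here, so the planned comparison of protein identity was not run.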

Additional observations from a re-analysis of the deposited data

How the results depend on the processing

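Of 512 recomputed values of members and named pathway genes, 480 stayed within 1 SD between replicates (for ratios within a table, within the counting interval) and 32 moved further. The SD limit widens with the spread of a gene, so these counts are no measure of stability. Fgf15 stayed within it at -1.14 without KO2, against 0.04 in the full fit. Where 1 library is left out, the lone library of its genotype is assumed to vary like the other genotype. The number of genes called higher was 0 and with DESeq2 2, and without a library it ran from 0 to 67. The number called lower was 1, and it was 2 with library totals alone, with DESeq2 and with the deposited table as a block. Without a library it ran from 0 (without WT6) to 37 (without WT8). None of the 10 genes was called under any of these 12 settings. The log2 fold change of Fgf15 was -1.14 at the lowest and 1.51 at the highest without a library (without KO2 and without WT8), and 0.03 to 0.17 under the other 8 settings. Etv1 stayed between 0.39 and 0.53, and Spry4 between -0.8 and -0.3. Of 120 recomputed values of the 10 genes, 5 moved by more than 1 SD between replicates, in each case in a fit without WT6 or WT8. The median of the 10 genes ran from -0.14 to 0.08 without a library, and the number above 0 from 3 to 7.

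Without a library, medians ran from -0.19 to 0.53 for other ligands, -0.06 to 0.07 for intracellular homologous factors, 0.04 to 0.33 for other receptors and coreceptors, -0.03 to 0.03 for heparan sulfate genes, -0.05 to 0.17 for adaptors, -0.04 to 0.03 for the Ras and MAP kinase cascade, -0.03 to 0.02 for other feedback inhibitors and -0.03 to 0.14 for other ETS factors. With library totals alone the medians of the cascade and of the feedback inhibitors were both 0.03. The labels give KO and WT no shared replicate numbers, so the block rests on the deposited tables, and it called none of the 10 genes. Xist was nearly absent in KO2 and WT6 and abundant in KO4 and WT8, so the block cannot be told apart from Xist level. A prior count of 0.5 moved no ratio within a table beyond its counting interval. Spry4, at 49 to 86 reads, is the gene whose precision depth limits most.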

Other observations

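Some pathway genes stood in the opposite order to Fgf15, low in KO2 and WT8 and high in KO4 and WT6. These were named after their values were seen, and none was called between genotypes. Dusp4, a nuclear phosphatase of MAP kinases, had 29.6 and 47.9 CPM in KO2 and KO4, against 48.2 and 20.4 in WT6 and WT8. Ndst1, an enzyme that sulfates heparan sulfate, had 49.8 and 66.1 CPM in KO2 and KO4, against 82.1 and 44.8 in WT6 and WT8. Sulf1, an enzyme that removes sulfate from heparan sulfate at the cell surface, had the order of Fgf15, with 4.75 and 2.35 CPM in KO2 and KO4, against 2.09 and 6.83 in WT6 and WT8. The oligodendrocyte lineage factor Olig2, also active in ventral progenitors, was lowest in WT6 like Fgf15, with 33.1 and 30.4 CPM in KO2 and KO4, against 18.7 and 39.5 in WT6 and WT8.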
